A study of Mus musculus with 1 sample.

Results

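Spi1, Gfi1, Runx1, Runx3, Myb and Myc, 6 transcription factor genes among the 25661 genes of the count table, were followed across mouse bone marrow progenitors. They were taken from the table by symbol, and all 6 had counts. They were measured in 1 library of single cells, in which sorted cells carried barcoded PE-streptavidin hashtags and were pooled before capture on BD Rhapsody microwells. Per the labels, the pool held cKit+Lin- progenitors and GMP-MoPs from a mouse injected with LPS and from a naïve mouse, and cMoPs from a naïve mouse. Genotype, strain, age, LPS dose and time are not given in the sources used here. The labels do not say which hashtag marked which mouse or sort, so the cells are named by their tags: A965 with 5567 cells kept, A963 with 4716, A962 with 104, A964 with 73 and A961 with 68. Each tag is 1 set of cells without a replicate. No p-value is given for that reason, and the exact 95% intervals cover counting error only.

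Spi1 encodes PU.1, an ETS-family activator needed for myeloid and B cell development and held low in erythroid cells. Gfi1 is a zinc-finger repressor that works through the CoREST complex and is needed for neutrophil formation, and its paralog Gfi1b acts in erythroid cells and megakaryocytes. Runx1, Runx2 and Runx3 bind DNA as partners of Cbfb; Runx1 is needed for the first blood stem cells and for megakaryocyte maturation, and Runx3 is best known from T cells and other lymphocytes. Myb sustains immature, dividing progenitors of several lineages, and Myc drives ribosome production and growth.

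The table of RefSeq promoter windows, from 250 bases before to 50 after a gene's start in GRCm38.p6, had entries for 4 of the 6 genes: Gfi1, Runx1, Runx3 and Myb. The Runx core was searched as TGTGGT on both strands and was found in 16.8% of 32851 windows. Overlap was allowed. A pair of cores in the same direction with 2 bases between them, ACCACANNACCACA on either strand, was in 7 windows, or 0.0213%. The spacing was read from the Runx windows, so their share of the 7 is no test. The 7 were 1 window of each of the 3 Runx genes, that of Gm16225, which overlaps the Runx3 window on the other strand, and those of 3 other genes. Runx1 and Runx3 each had 2 windows in the table, and their second windows held neither the pair nor the core. The pair is shown because 1 window of each Runx gene held it, with the pair in capitals, 8 bases on each side, and each sequence on its gene's own strand. A match describes the letters and is not evidence of binding.
Runx1 (chr16:92826025-92826054, minus strand): cataaacaACCACAGAACCACAagttgggt
Runx2 (chr17:44814583-44814612, minus strand): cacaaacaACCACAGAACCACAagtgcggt
Runx3 (chr4:135120503-135120532, plus strand): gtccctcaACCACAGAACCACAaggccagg
Counting the base before the start as 0, the pair began at 29 in Runx1, at 24 in Runx2 and at -133 in Runx3. The 250 bases before the Runx3 start are given, with the pair again in capitals, because in Runx3 alone of these 3 the pair lies before the start.
Runx3 (chr4:135120395-135120644, plus strand): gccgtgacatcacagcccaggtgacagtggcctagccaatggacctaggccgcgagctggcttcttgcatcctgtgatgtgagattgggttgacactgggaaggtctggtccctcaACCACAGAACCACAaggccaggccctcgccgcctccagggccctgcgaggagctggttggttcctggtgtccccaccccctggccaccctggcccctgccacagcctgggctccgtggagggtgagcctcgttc

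In GENCODE M21 on GRCm38, Spi1 spans bases 91082390 to 91115756 of chromosome 2 on the plus strand, Gfi1 spans 107716657 to 107726036 of chromosome 5 on the minus strand, and Runx1 spans 92601466 to 92826149 of chromosome 16 on the minus strand. Runx3 spans 135120652 to 135177990 of chromosome 4 on the plus strand, Myb spans 21124935 to 21160984 of chromosome 10 on the minus strand, and Myc spans 61985391 to 61990374 of chromosome 15 on the plus strand. Genes on the opposite strand overlap 4 of them. A430072P03Rik, which overlaps Gfi1, had 455 counts against 5030 for Gfi1, and Gm26577, which overlaps Myb, had 430 against 29316. Gm16224 had 44 counts against 6116 for Runx3, and Gm26626 had 13 against 11636 for Runx1. Whether counting used strand is not given in the sources used here, so reads of a pair may not be told apart.

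Cells were gated with 11 lists of lineage markers, none of which holds any of the 6 genes, and 8778 of the 10528 cells kept (83.4%) passed a gate. A gate is a range of a marker score and not a cell type: of the 1750 ungated cells, 947 lay near a cut, while 658 gated cells did. Of 83 markers, 78 were highest in their own gate. The same markers set the gates, so this is no test of them. The eosinophil gate, with 93 cells and 4 markers, had a median of 1.01 eosinophil marker counts per 10000 and of 40.2 azurophil granule marker counts, and its cells are called by the gate's name only. The stem gate had medians of 5.99 stem marker counts and 12.1 azurophil granule marker counts per 10000. Medians in the megakaryocyte gate were 6.48 megakaryocyte marker counts and 12.1 azurophil granule marker counts. Markers of other cells were present too: Igha and Igkc together had 1209 CPM (the summed count of a gene as a share of all counts in the group, in the usual scaling) in the lymphoid gate and 645 in the conventional dendritic gate, and T and NK cell markers summed to 128 CPM in the plasmacytoid dendritic gate. Their part in the results was not tested. Cells in the erythroid gate made up 2.86% of A965 and 13.1% of A963, and the median count per cell ran from 13680 in the plasmacytoid dendritic gate to 41506 in the erythroid gate. Xist had 11.8 CPM in A965, against 611 CPM in A963, and sex and any other difference between these tags cannot be told apart.

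The levels of the 6 genes differed between gates by 9.22-fold (Myb) to 53.4-fold (Gfi1), highest over lowest. For the 8 gates with at least 100 cells in both A965 and A963, each gate was set against all other gated cells of the same tag, and a gene was called where its ratio, with 10 CPM added, passed 1.5-fold in the same direction in both tags. Of the 48 pairs of gene and gate, 10 were called higher, 16 lower and 22 were not called. The share of all tested genes called higher and called lower was 11.4% and 6.9% in the stem gate, 10.6% and 7.69% in the lymphoid gate, 18.9% and 20.2% in the erythroid gate, and 3.87% and 3.78% in the azurophil granule gate. It was 5.31% and 40.4% in the late neutrophil granule gate, 8.34% and 4.3% in the monocyte gate, 9.33% and 5.6% in the conventional dendritic gate, and 12.5% and 5.79% in the plasmacytoid dendritic gate. In the late neutrophil granule gate the 10 highest genes took 42.1% of the counts, S100a9 alone taking 14.03%, and the median of all tested genes was -0.54 in A965 and -0.51 in A963 (log2). In the other gates that median lay between 0.03 and 0.20. The other gated cells also differ between the tags, and with each of the other gates given equal weight, an alternative chosen after seeing the data, 27 pairs were called.

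**Figure D1:**
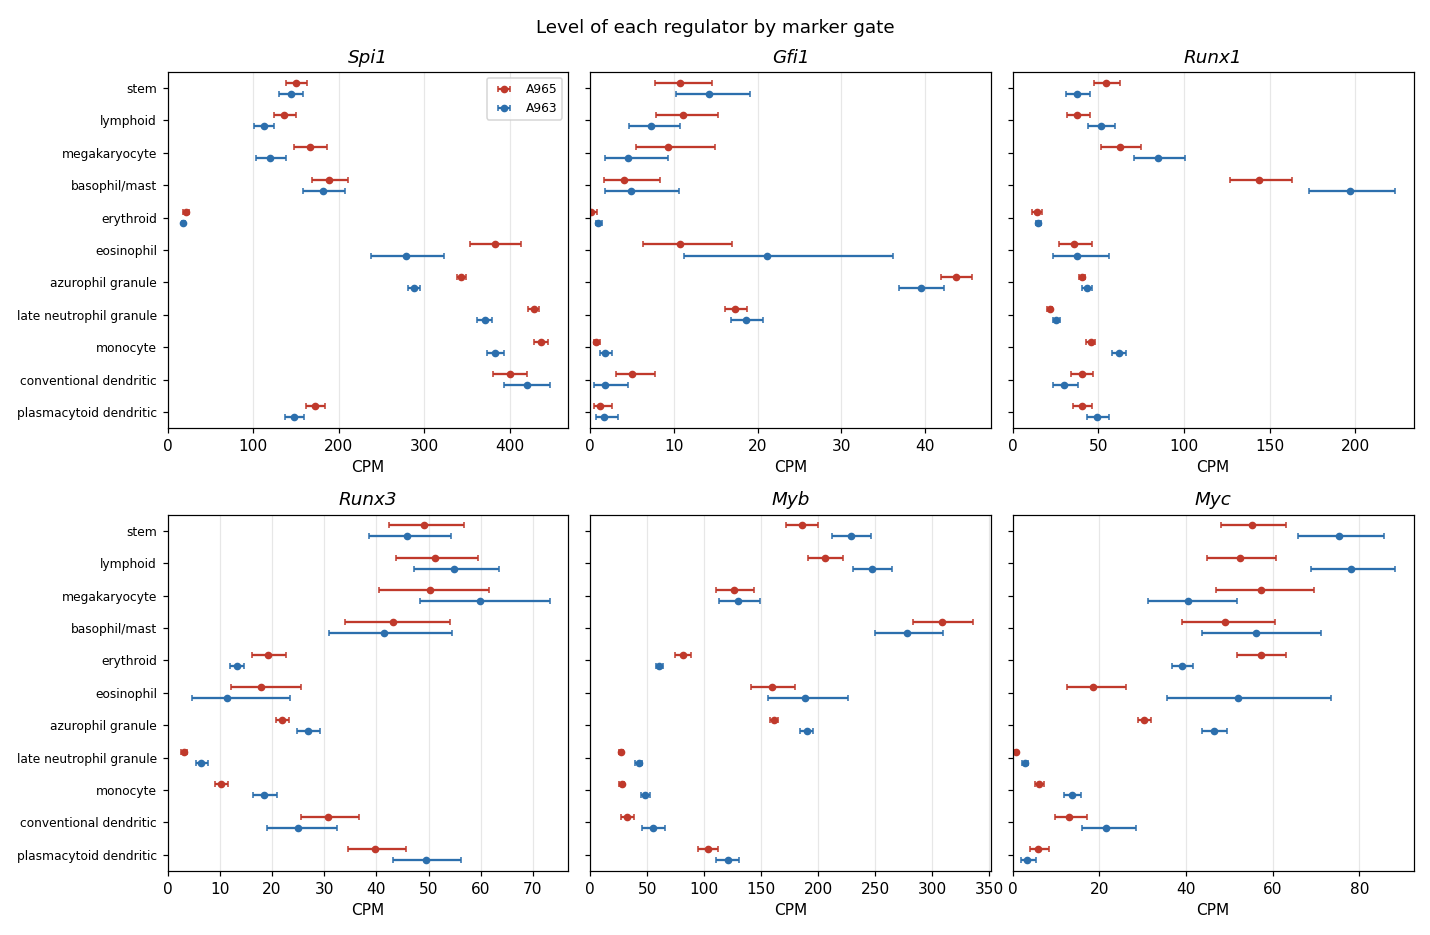
CPM of the 6 regulators (one panel each, linear axis from 0) in 11 marker gates, with A965 cells in red above A963 cells in blue. Points are levels of summed counts and bars are exact 95% Poisson intervals. Gfi1 is highest in the azurophil granule gate at 43.8 CPM in A965, against 39.5 CPM in A963, and Spi1 is lowest in the erythroid gate.

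Spi1 was highest in the monocyte, neutrophil, eosinophil and conventional dendritic gates and lowest in the erythroid gate. It had 419 CPM in the monocyte gate, 408 CPM in the late neutrophil granule gate and 408 CPM in the conventional dendritic gate, and the intervals of these neighbours overlapped. The eosinophil gate had 353 CPM and the azurophil granule gate 327 CPM. A middle range followed, with 186 CPM in the basophil/mast gate, 161 CPM in the plasmacytoid dendritic gate, 148 CPM in the stem gate, 145 CPM in the megakaryocyte gate and 124.7 CPM in the lymphoid gate. Within this range only the basophil/mast gate stood clear of its neighbour by its interval.

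In the erythroid gate Spi1 had 21.6 CPM in A965, against 366 CPM in the other gates of that tag, and 18.1 CPM in A963, against 304 CPM in the other gates. It was 16.96-fold lower in A965 and 16.8-fold lower in A963 (intervals 14.5 to 19.998 and 15.3 to 18.4). With each cell thinned to 8800 counts, 93.3% of cells in the monocyte gate had a Spi1 count and 9.15% in the erythroid gate did, at median depths of 23914 and 41506 counts before thinning; unthinned, these shares were 98.6% and 20.6%. Spi1 was also called lower in the lymphoid gate, with 136 CPM against 354 CPM in the other gates of A965 and 112 CPM against 231 CPM in A963. It was called lower in the stem gate, by 2.36-fold in A965 and 1.59-fold in A963, and in the plasmacytoid dendritic gate, by 2.06-fold and 1.56-fold. Those A963 ratios sit close to 1.5-fold, and their calls ended under 3 other gate settings each, which gave log2 values of -0.09 to -0.41 for the stem gate and -0.36 to -0.58 for the plasmacytoid dendritic gate. With the other gates weighted equally, Spi1 was called higher in the monocyte gate, by 1.83-fold in A965 and 1.84-fold in A963, in the late neutrophil granule gate, by 1.78-fold and 1.77-fold, and in the conventional dendritic gate, by 1.65-fold and 2.05-fold. None of these was called against the summed other cells.

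Gfi1 had the widest span between gates of the 6 genes. The azurophil granule gate, whose markers are the early neutrophil granule proteins Mpo, Elane and Prtn3, held 62.6% of all Gfi1 counts with 24.9% of all counts. Its level was 41.9 CPM there, followed by 17.7 CPM in the late neutrophil granule gate, 12.98 CPM in the eosinophil gate and 12.3 CPM in the stem gate, of which the last 3 had overlapping intervals between neighbours. The lymphoid gate had 9.08 CPM, the megakaryocyte gate 7.09 CPM, the basophil/mast gate 4.38 CPM and the conventional dendritic gate 3.80 CPM. At the low end were the plasmacytoid dendritic gate with 1.41 CPM, the monocyte gate with 1.02 CPM and the erythroid gate with 0.783 CPM, again with overlapping intervals.

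Gfi1 was called higher in the azurophil granule gate, with 43.8 CPM against 9.20 CPM in the other gates of A965 and 39.5 CPM against 6.81 CPM in A963. These are folds of 4.76 (4.40 to 5.15) and 5.81 (5.21 to 6.48). In the monocyte gate it was called lower, at 0.722 CPM against 25.7 CPM in A965 and 1.74 CPM against 16.0 CPM in A963. The same call was made for the plasmacytoid dendritic gate, with 1.18 CPM against 22.1 CPM in A965 and 1.70 CPM against 14.6 CPM in A963, and for the conventional dendritic gate, with 5.02 CPM against 21.8 CPM and 1.76 CPM against 14.3 CPM; the dendritic call ended in A965 with the other gates weighted equally (-0.48, log2). In the erythroid gate A965 held 1 Gfi1 count, a ratio of 0.00623 with an interval of 0.000158 to 0.0347, and A963 held 26 counts, 19.5-fold lower than its other gates. At 8800 counts per cell, 24.6% of azurophil granule cells had a Gfi1 count (47.1% unthinned), against 0.635% in the erythroid gate (2.03% unthinned), 0.719% in the monocyte gate and 0.332% in the plasmacytoid dendritic gate. The median depths were 37848, 41506, 23914 and 13680 counts. The shares in the monocyte and plasmacytoid dendritic gates had intervals that overlapped that of the erythroid gate. No background level was measured, and whether these few counts are background was not tested.

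Monocytes and neutrophils share a progenitor, and Irf8, which encodes a factor that drives monocyte and dendritic cell fate, was set against Gfi1 within single cells, a comparison chosen after values had been seen. In the azurophil granule gate, thinned to 8800 counts, 284 cells of A965 had a Gfi1 count and 801 had none. An Irf8 count was found in 14.1% of the cells with Gfi1 (10.3 to 18.7), against 45.9% of those without (42.4 to 49.5). In A963 the shares were 15.2% of 151 cells with Gfi1 (9.91 to 22.0), against 49.3% of 501 cells without (44.8 to 53.8). Csf1r, the receptor for the monocyte growth factor M-CSF, had a count in 5.99% of cells with Gfi1 against 17.5% without in A965, and in 10.6% against 22.0% in A963. The groups' unthinned depths were close, with medians of 41670 and 44333 counts in A965 and 29427 and 31309 in A963.

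The granule protease Elane went the other way, with a mean thinned count of 81.0 in cells with Gfi1 against 52.4 without in A965, and 107 against 68.5 in A963. Elane is a marker of the gate, and the part that marker level within the gate has in these shares was not tested. Among ungated cells, an Irf8 count was in 23.1% of 65 cells with Gfi1 against 62.7% of 859 cells without in A965, and in 38.0% of 50 against 65.1% of 740 in A963. The few stem gate cells with a Gfi1 count, 11 in A965 and 13 in A963, had intervals too wide to set them apart from the rest. These shares are over cells of 1 tag each, which are not replicates.

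**Figure D2:**
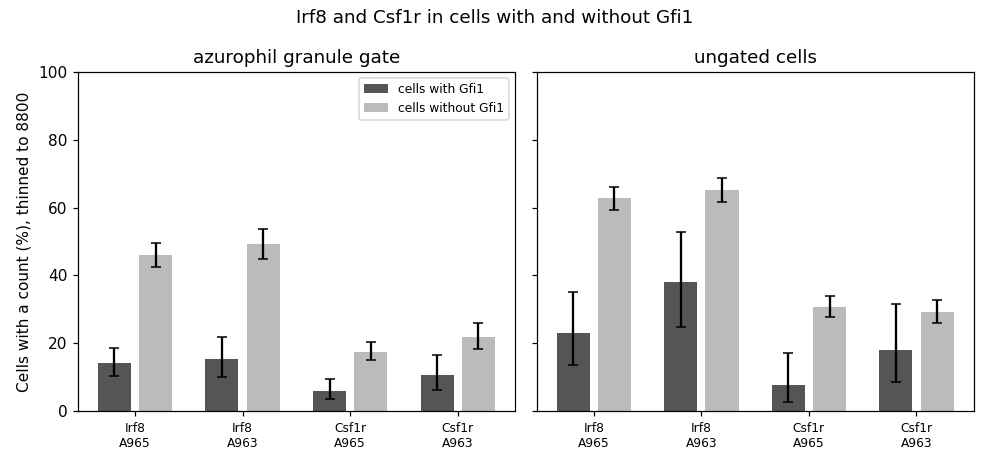
Share of cells (%, linear axis) with an Irf8 or Csf1r count after thinning to 8800 counts, in cells with a Gfi1 count (dark bars) and without one (light bars), for the azurophil granule gate (left) and ungated cells (right), with A965 before A963. Bars carry exact 95% binomial intervals. In the azurophil granule gate the share with Irf8 is 14.1% against 45.9% in A965 and 15.2% against 49.3% in A963.

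Within the Runx family, Runx1 peaked in the basophil/mast gate, Runx3 was spread over the stem, lymphoid and megakaryocyte gates, and Runx2, which is not one of the 6 genes, peaked in the plasmacytoid dendritic gate. Runx1 had 166 CPM in the basophil/mast gate (144 CPM in A965, against 197 CPM in A963) and 72.7 CPM in the megakaryocyte gate, and both stood apart from the next gate by their intervals. From the monocyte gate with 51.3 CPM to the eosinophil gate with 36.0 CPM, each of 7 neighbours overlapped the next. The late neutrophil granule gate had 22.9 CPM and the erythroid gate 14.7 CPM. Of the 8 gates compared, Runx1 was called in the erythroid gate alone in the summed comparison, at 14.0 CPM against 37.8 CPM in the other gates of A965 (2.70-fold lower) and 14.9 CPM against 45.3 CPM in A963 (3.05-fold lower). Its partner Cbfb was lower there too, by 7.83-fold in A965 and 13.4-fold in A963. With the other gates weighted equally, Runx1 was also called lower in the late neutrophil granule gate, with ratios of 0.420 and 0.418.

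Runx3 had 54.6 CPM in the megakaryocyte gate, 52.7 CPM in the lymphoid gate, 47.7 CPM in the stem gate, 44.1 CPM in the plasmacytoid dendritic gate and 42.5 CPM in the basophil/mast gate, with each interval overlapping the next. The other gates held less, with 29.1 CPM in the conventional dendritic gate, 23.3 CPM in the azurophil granule gate, 13.2 CPM in the monocyte gate and 4.19 CPM in the late neutrophil granule gate. Against the other gates it was called higher in the lymphoid gate (51.2 CPM against 16.6 CPM in A965, and 54.9 CPM against 19.9 CPM in A963), in the stem gate (49.2 against 16.5 CPM, and 45.9 against 20.3 CPM) and in the plasmacytoid dendritic gate (39.8 against 16.6 CPM, and 49.4 against 19.7 CPM). The last 2 calls ended with the other gates weighted equally, where the folds were 1.71 and 1.496 in the stem gate and 1.34 and 1.63 in the plasmacytoid dendritic gate. In the late neutrophil granule gate it was called lower, at 3.08 CPM against 22.9 CPM in A965 and 6.44 CPM against 24.7 CPM in A963.

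Runx2 had 438 CPM in the plasmacytoid dendritic gate, against 127 CPM in the conventional dendritic gate, 108 CPM in the lymphoid gate and at most 47.7 CPM in the other 8 gates. In the plasmacytoid dendritic gate it was 19.8-fold above the other gates in A965 and 19.6-fold in A963. The peak gates of Runx1 and Runx2 differed, while the highest gate of Runx3 was not separated by its interval from either of them.

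**Figure D3:**
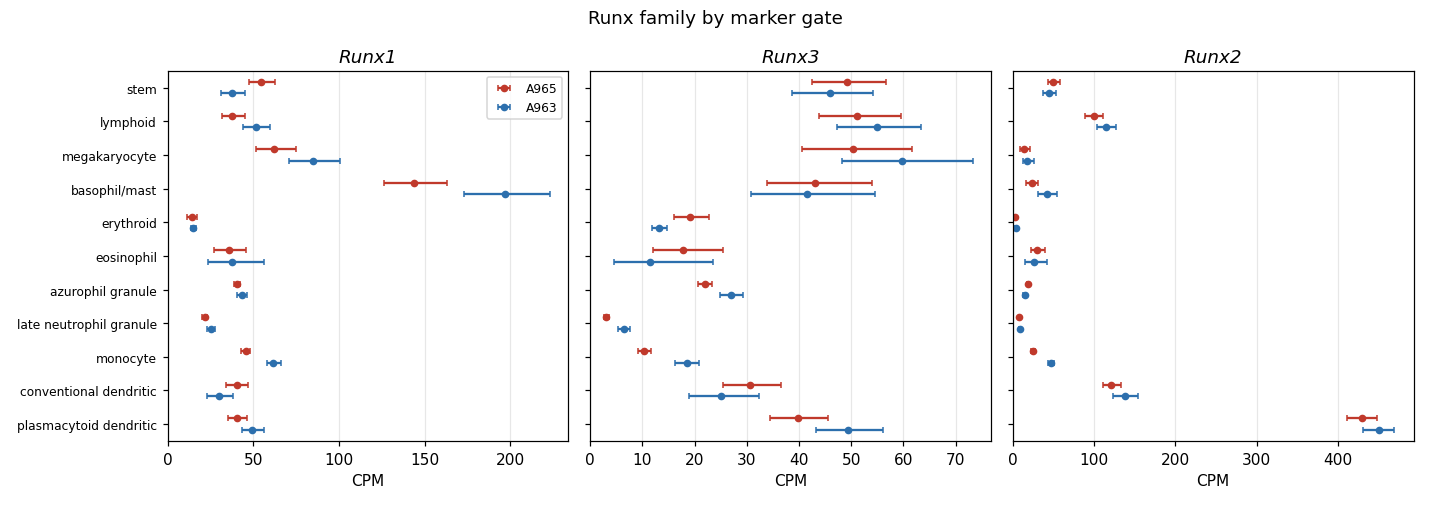
CPM of Runx1, Runx3 and Runx2 (one panel each, linear axes from 0 with different ranges) in 11 marker gates, with A965 in red above A963 in blue and exact 95% Poisson intervals. Runx1 is highest in the basophil/mast gate, Runx2 in the plasmacytoid dendritic gate, and Runx3 has several gates near 50 CPM.

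Myb was highest in the basophil/mast, lymphoid and stem gates. It had 296 CPM in the basophil/mast gate, 226 CPM in the lymphoid gate, 204 CPM in the stem gate and 167 CPM in the azurophil granule gate, then 161 CPM in the eosinophil gate, 128 CPM in the megakaryocyte gate, 111 CPM in the plasmacytoid dendritic gate and 64.4 CPM in the erythroid gate. The lowest levels were 40.4 CPM in the conventional dendritic gate, 35.3 CPM in the monocyte gate and 32.1 CPM in the late neutrophil granule gate, with overlapping intervals between neighbours. Myb was called higher in the lymphoid gate, at 206 CPM against 91.7 CPM in the other gates of A965 and 247 CPM against 97.3 CPM in A963, and in the stem gate, at 185 CPM against 91.9 CPM and 229 CPM against 98.3 CPM. In the azurophil granule gate it was called higher by 2.77-fold in A965 and 2.45-fold in A963, but the ratio was 1.28 and 1.36 with the other gates weighted equally, which ended that call. The equal weighting also ended the stem gate's call, at 1.504-fold in A965 (0.55 in log2 with 10 CPM added) and 1.68-fold in A963. In the monocyte gate Myb was called lower, with 27.6 CPM against 108 CPM in A965 and 48.4 CPM against 111 CPM in A963. It was called lower in the conventional dendritic gate, by 2.94-fold in A965 and 1.88-fold in A963 (ended by the even-numbered markers, at -0.42 in A963), and in the late neutrophil granule gate, by 4.44-fold and 2.76-fold.

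Myc had 65.2 CPM in the lymphoid gate, 64.6 CPM in the stem gate, 51.9 CPM in the basophil/mast gate and 49.6 CPM in the megakaryocyte gate, where each interval overlapped the next. It had 42.5 CPM in the erythroid gate, 35.7 CPM in the azurophil granule gate and 29.3 CPM in the eosinophil gate. The other gates held little: 16.0 CPM in the conventional dendritic gate, 8.81 CPM in the monocyte gate, 4.53 CPM in the plasmacytoid dendritic gate and 1.36 CPM in the late neutrophil granule gate, none overlapping the next. At 8800 counts, 37.0% of stem gate cells had a Myc count (47.2% unthinned), against 0.980% of late neutrophil granule cells (1.96% unthinned), at median depths of 16706 and 21122 counts.

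Myc was called higher in the stem gate, with 55.2 CPM against 18.5 CPM in the other gates of A965 and 75.4 CPM against 29.1 CPM in A963, and in the lymphoid gate, with 52.4 CPM against 18.7 CPM and 78.0 CPM against 28.9 CPM. It was called lower in the plasmacytoid dendritic gate, at 5.88 CPM against 20.01 CPM in A965 and 3.18 CPM against 31.9 CPM in A963, a call that the even-numbered markers ended (-0.56 in A965). The late neutrophil granule and monocyte gates were called lower as well, by 38.5-fold and 3.69-fold in A965 and by 13.7-fold and 2.41-fold in A963. Its call as higher in the azurophil granule gate, at 30.4 CPM against 13.6 CPM in A965 and 46.5 CPM against 26.0 CPM in A963, ended with the other gates weighted equally, where the ratios were 0.963 and 1.22. That call also ended with a gate score minimum of 1, at 0.52 in A965 and 0.50 in A963 (log2). With the even-numbered markers it ended at 0.50 and 0.43.

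The plasmacytoid dendritic gate, low in Myc, held cell cycle transcripts, with S phase genes summing to 1765 CPM and G2/M genes to 2691 CPM, against 1391 CPM and 1089 CPM in the stem gate. The other Myc family genes took different gates. Mycl had 32.6 CPM in the conventional dendritic gate and 29.8 CPM in the plasmacytoid dendritic gate, and at most 9.52 CPM in each of the other 9. Mycn had 38.2 CPM in A965, against 49.5 CPM in A963, in the megakaryocyte gate. The tags stood further apart in the stem gate, at 9.68 CPM in A965 (6.82 to 13.3) against 25.4 CPM in A963 (20.1 to 31.8). In the lymphoid gate it had 2 counts, or 0.599 CPM, in A965 (0.0725 to 2.16) against 61 counts, or 18.3 CPM, in A963 (14.0 to 23.5). In the remaining gates, over all tags, it was at most 2.36 CPM. Mxd1, a Max partner that opposes Myc, had 68.1 CPM in the late neutrophil granule gate, where Myc was lowest, and between 5.10 and 16.2 CPM elsewhere. Other genes listed for the Myc network went both ways. Mxi1 was also highest there, at 25.9 CPM, and Mxd3 in the plasmacytoid dendritic gate, at 118 CPM. Mxd4 had 26.0 CPM in the late neutrophil granule gate, against 109 CPM in the lymphoid gate and 89.5 CPM in the stem gate. Mnt and Mga were lowest in the late neutrophil granule gate, at 6.34 and 11.8 CPM.

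In the late neutrophil granule gate the scaling changed some directions. With median-of-ratios scaling in place of total counts, Runx3, Myb and Myc stayed past 1.5-fold lower there in both tags, at -0.98, -1.18 and -1.49 in A965 and -0.71, -0.70 and -1.56 in A963 (log2). Spi1 went to 1.15 and 1.56, past 1.5-fold higher in both tags, against 0.41 and 0.92 with total counts. Gfi1 was 0.24 in A965, against -0.27 with total counts, and 0.73 in A963. Runx1, at -0.73 in A965 and -0.50 in A963 with total counts, moved to -0.16 and 0.00.

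Both neutrophil gates were split at the median of later markers, Camp, Ltf, Ngp and Lcn2 in the azurophil granule gate and Mmp9 and Retnlg in the late neutrophil granule gate. These genes are not among the 6. The split gives 4 ranges ordered by granule genes. Gfi1 was highest in the second of them: in A965 it had 33.4, 56.0, 17.1 and 17.5 CPM from the first to the last range, and in A963 29.1, 57.4, 20.01 and 16.3 CPM. In the later azurophil range it was 1.68-fold (1.54 to 1.82) above the earlier range in A965 and 1.98-fold (1.73 to 2.26) in A963 and was called higher, where 6.69% of all tested genes were. The A965 value lay just under the threshold under 3 other settings, at 0.52 to 0.54 (log2).

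Myc was lower in each later range up to the third, with 46.5, 11.2, 0.784 and 0.625 CPM in A965 and 57.9, 27.0, 2.72 and 2.79 CPM in A963. The last 2 ranges, under 10 CPM, held 14 and 14 counts in A965 and 34 and 21 in A963. The ratio of the last over the third was 0.797 (0.352 to 1.80) in A965 and 1.02 (0.564 to 1.81) in A963, which shows no step either way. In the later azurophil range it was called lower, by 4.15-fold (3.63 to 4.76) in A965 and 2.15-fold (1.85 to 2.50) in A963, where 9.62% of tested genes were called lower. Myb had 209.5, 103.5, 26.7 and 27.4 CPM in A965 and 215.5, 146, 42.5 and 42.4 CPM in A963, and its azurophil step of 2.02-fold in A965 and 1.48-fold in A963 was not called. It was called lower under 4 other settings, at -0.59 to -0.73 in A963 (log2). Spi1 had 277, 421, 420 and 433 CPM in A965 and 254, 345, 358 and 391 CPM in A963. Within the late neutrophil granule gate none of the 6 genes was called between the 2 ranges, where 0.39% of tested genes were called higher and 0% lower. Runx3 differed between the tags in the second range, with 15.5 CPM in A965, against 28.5 CPM in A963.

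**Figure D4:**
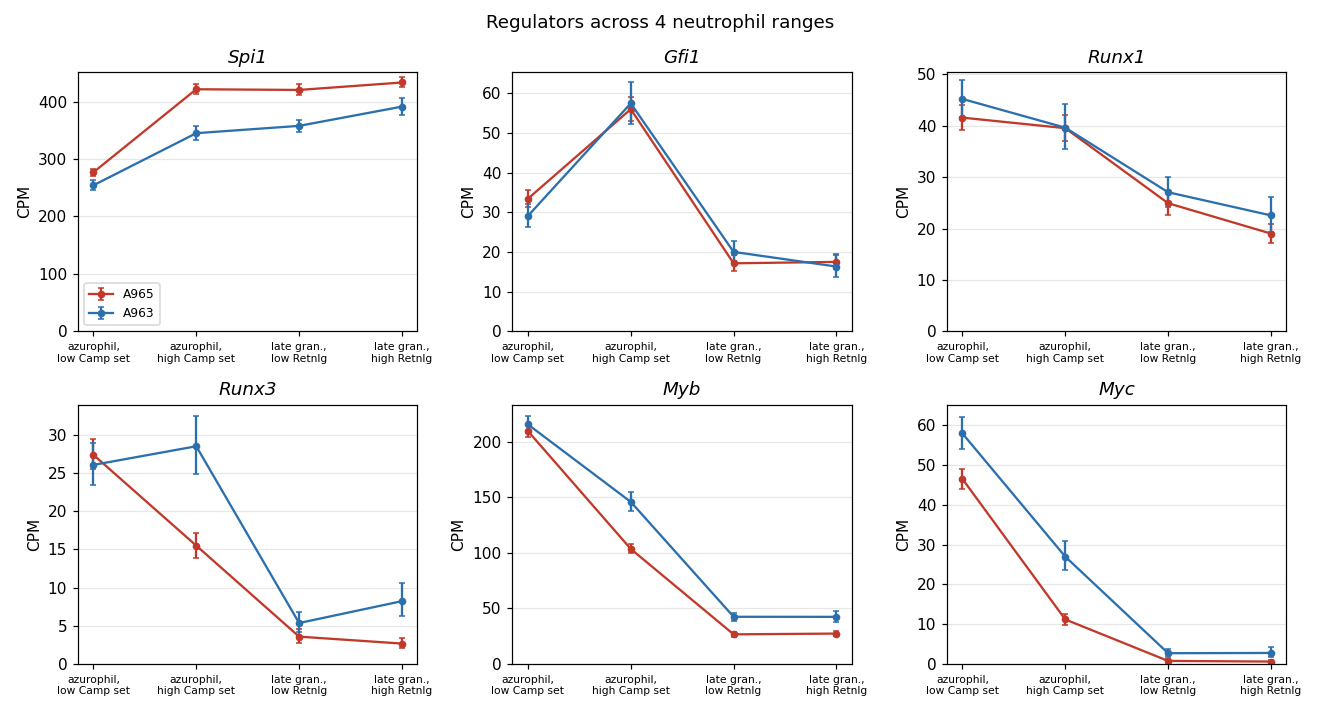
CPM of the 6 regulators (one panel each, linear axis from 0) over 4 ranges: azurophil granule cells below and above the median of summed Camp, Ltf, Ngp and Lcn2 counts (the Camp set), then late neutrophil granule cells below and above the median of Mmp9 and Retnlg. A965 is red, A963 is blue, bars are exact 95% Poisson intervals. Gfi1 peaks in the second range at 56.0 CPM in A965, against 57.4 CPM in A963, while Myc is near 0 in the last 2.

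In the erythroid gate, cells above the gate's median of globin counts were set against the rest. Myb, Myc and Runx3 were all called lower in these later cells, where 8.91% of tested genes were called lower and 3.07% higher. Myb had 22.0 CPM in the later cells against 111 CPM in the earlier cells of A965, and 10.3 CPM against 107 CPM in A963. These are 5.07-fold (3.82 to 6.86) and 10.4-fold (8.71 to 12.5) lower. Myc had 26.5 CPM against 72.9 CPM in A965 and 14.1 CPM against 62.3 CPM in A963. Runx3 had 11.2 CPM against 23.3 CPM in A965 and 6.87 CPM against 19.2 CPM in A963, and its call ended with median-of-ratios scaling (-0.57 in A965). Runx1 had 13.7 CPM against 14.2 CPM in A965 and 14.1 CPM against 15.7 CPM in A963. Spi1 went opposite ways, with 33.6 CPM against 15.4 CPM in A965 and 13.5 CPM against 22.4 CPM in A963, and its A965 value turned to -0.12 (log2) once cells that Scrublet called doublets were left out. The split of A965 was over 59 later and 100 earlier cells.

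In the monocyte gate the later cells were taken as those with few Mpo, Elane and Prtn3 counts, and none of the 6 genes was called, where 3.77% of tested genes were called higher and 1.32% lower. The Spi1 ratio of later over earlier cells was 1.28 in A965 (491 CPM against 384 CPM) and 1.25 in A963 (458 CPM against 365 CPM). Myb had 14.0 CPM against 40.6 CPM in A965 and 39.4 CPM against 50.6 CPM in A963, past 1.5-fold in A965 alone. Under 3 other settings Myb passed in A963 too and was called lower: at -1.10 with a gate score minimum of 1, -0.89 with the even-numbered markers and -0.61 after thinning (log2, A963). Gfi1 was under 10 CPM in both, with 0.656 CPM against 0.784 CPM in A965 and 0.750 CPM against 1.97 CPM in A963. Myc was under 10 CPM in both ranges of A965 and so could not be called. It had 3.03 CPM against 8.94 CPM in A965, 2.95-fold lower (2.02 to 4.39). In A963 it had 6.37 CPM against 15.5 CPM, 2.44-fold lower (1.48 to 4.28), or -0.64 in log2 with 10 CPM added. With the even-numbered markers that A963 value was -0.26. The later cells were 589 of the 901 monocyte gate cells in A965 and 138 of 533 in A963. Median depths were 17587 against 40279 counts in A965 and 16766 against 27005 in A963, and with all cells thinned to 8800 counts the Myb ratio was -1.52 in A965 and -0.61 in A963 and that of Runx1 was -0.68 in A965 and 0.04 in A963 (log2).

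Over all cells, none of the 6 genes was called between A965 and A963, where 1.93% of tested genes were called higher and 2.54% lower. Spi1 had 346 CPM in A965, against 238 CPM in A963, a ratio of 1.45 (1.43 to 1.47). Gfi1 had 19.4 CPM in A965, against 13.2 CPM in A963, a ratio of 1.47 (1.38 to 1.56). Myc had 20.5 CPM in A965, against 31.1 CPM in A963, 1.52-fold lower, which the 10 CPM added brought under the threshold. Runx1 had 38.1 CPM in A965, against 39.2 CPM in A963, Runx3 18.8 CPM and 22.8 CPM, and Myb 93.2 CPM and 106 CPM. With the 8 gates weighted equally in each tag, the ratio was 1.11 for Spi1, 1.05 for Gfi1, 0.941 for Runx1, 0.937 for Runx3, 0.830 for Myb and 0.788 for Myc. Median-of-ratios scaling would call Spi1 higher over all cells, at 0.61 (log2).

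Within gates, 2 of the 48 pairs were called, both Myb. Pairs under 10 CPM in both tags could not be called. These were Gfi1 in the erythroid, monocyte, conventional dendritic and plasmacytoid dendritic gates and Runx3 in the late neutrophil granule gate. Myc in the late neutrophil granule and plasmacytoid dendritic gates was also among them. The shares of all tested genes called higher and lower were 1.38% and 1.93% in the stem gate, 1.82% and 3.08% in the lymphoid gate, 0.633% and 0.188% in the erythroid gate, 0.948% and 0.384% in the azurophil granule gate and 1.71% and 0.751% in the late neutrophil granule gate. They were 3.43% and 1.04% in the monocyte gate, 2.16% and 3.86% in the conventional dendritic gate and 0.891% and 1.63% in the plasmacytoid dendritic gate. In the monocyte gate Myb had 27.6 CPM in A965, against 48.4 CPM in A963, 1.75-fold lower (1.57 to 1.95), where 1.04% of tested genes were called lower. In the conventional dendritic gate it had 32.7 CPM in A965, against 54.9 CPM in A963, 1.68-fold lower (1.30 to 2.17), where 3.86% were. The monocyte call ended with no gate margin (-0.56), with median-of-ratios scaling (-0.57) and after thinning (-0.50), and the dendritic call under 6 settings (-0.29 to -0.57). By monocyte range, Myb had 14.0 CPM in A965, against 39.4 CPM in A963 among later cells, and 40.6 CPM in A965, against 50.6 CPM in A963 among earlier cells.

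Myb was lower in A965 in 7 of the 8 gates, the erythroid gate being the exception, and Myc in 6 of 8. In the azurophil granule gate Myc had 30.4 CPM in A965, against 46.5 CPM in A963 (1.53-fold lower, 1.41 to 1.66), and in the monocyte gate 6.05 CPM and 13.7 CPM (2.27-fold, 1.82 to 2.83). In the erythroid gate Myc had 57.3 CPM in A965, against 39.1 CPM in A963, and Myb 81.2 CPM and 60.4 CPM. Among the earlier cells by globin, Myb was at 111 CPM in A965, against 107 CPM in A963. Spi1 was higher in A965 in 7 of the 8 gates, by at most 1.21-fold, and was 399.9 CPM in A965, against 419 CPM in A963 in the conventional dendritic gate. Runx1 had 54.7 CPM in A965, against 37.7 CPM in A963 in the stem gate, a ratio of 1.45 (1.15 to 1.84), but 45.4 CPM and 61.7 CPM in the monocyte gate, 1.36-fold lower (1.24 to 1.49). Neither was called.

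**Figure D5:**
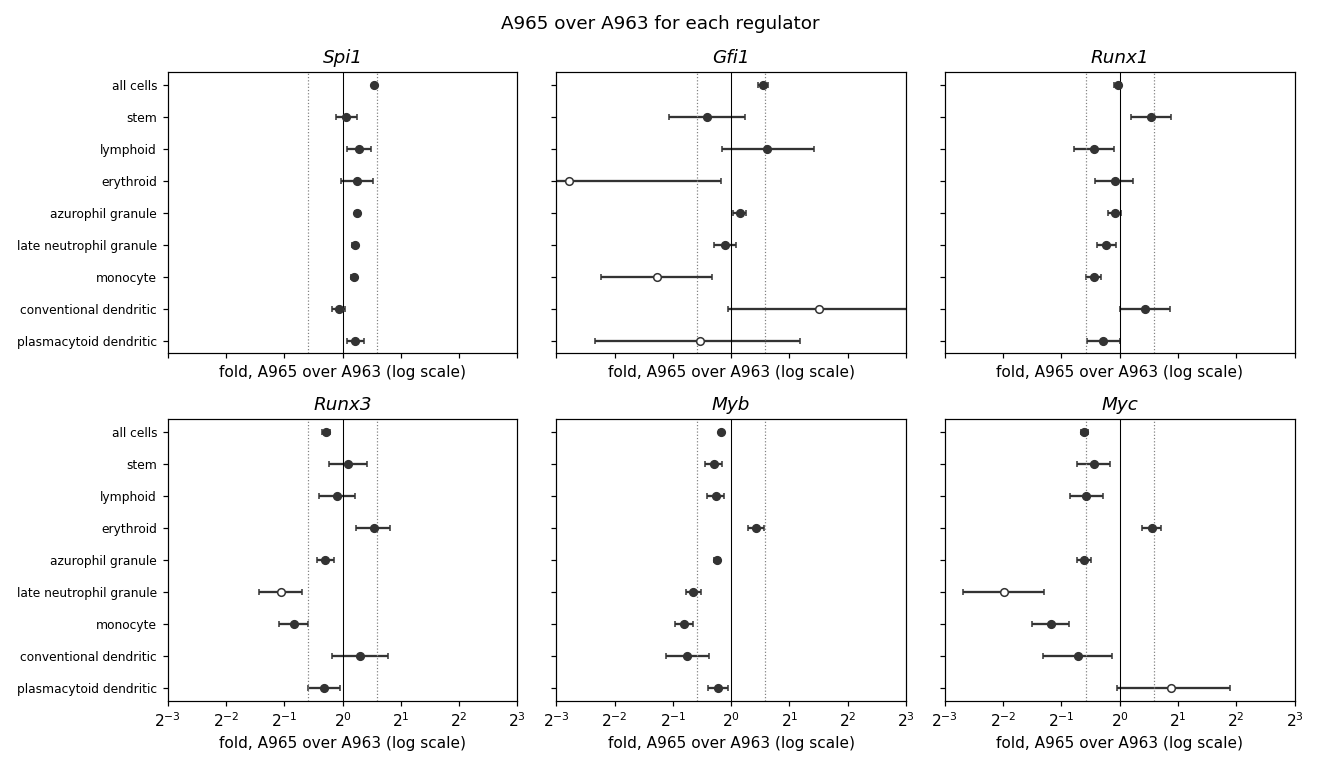
Fold of A965 over A963 (log axis, base 2) for each regulator in all cells and in the 8 gates with at least 100 cells of both tags, with exact 95% counting intervals. Dotted lines mark 1.5-fold either way, open circles are pairs under 10 CPM in both tags, and intervals that pass the axis ends are cut. The Gfi1 intervals of the erythroid and conventional dendritic gates pass the axis. Myc lies left of 1 in 6 of the 8 gates and Spi1 right of 1 in 7.

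The smaller tags gave wider intervals. Spi1 had 434 CPM in A964 (408 to 462), 347 CPM in A961 (321 to 374) and 321 CPM in A962 (301 to 341). Most cells of A961 and A964 fell in the monocyte gate, 42 of 68 and 37 of 73, and 38 of 104 cells of A962 fell in the azurophil granule gate. Gfi1 had no count in the monocyte gate cells of A961, A964 or A962, which allows up to 2.62, 2.94 and 7.37 CPM at 3 counts, and had 17.8 CPM (11.6 to 26.0) in the azurophil granule cells of A962. Myb in the monocyte gate was 61.2 CPM in A961 (47.7 to 77.3) and 24.5 CPM in A964 (15.9 to 36.2). Runx1 was 69.9 CPM in A961 (55.4 to 87.0) and 25.5 CPM in A964 (16.7 to 37.4). Neither pair of intervals overlapped. Spi1 was 384 CPM in A961 and 504 CPM in A964, again without overlap. These intervals do not cover the spread between cells. After thinning, 23.8% of the 42 cells of A961 and 24.3% of the 37 of A964 had a Runx1 count, and unthinned 50% and 29.7% did. Xist had 486 CPM in all cells of A961 and 409 CPM in A962, against 59.7 CPM in A964. Y-linked genes together had 39.2 CPM in A961, 21.0 CPM in A962 and 86.0 CPM in A964. Their level was 6.46 CPM in A963 and 79.5 CPM in A965. Sex and any other difference between A961 and A964 cannot be told apart. With 100 cells loaded for each small tag, 68 were kept for A961, 104 for A962 and 73 for A964. With 15000 loaded each, 4716 were kept for A963 and 5567 for A965. Whether cells of A963 or A965 were assigned to the small tags was not tested.

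Lists of genes that work with the 6 regulators moved unevenly over the gates. The list of PU.1 partners and targets had 9 of 14 genes tested in the erythroid gate, of which 8 were called lower and none higher, with medians of -2.33 in A965 and -2.26 in A963 (log2), against 0.17 and 0.10 over all genes tested. Of all tested genes, 20.2% were called lower in that gate. In the monocyte gate, whose list counts follow below, 8.34% of all tested genes were called higher. In the erythroid gate of A965, Irf8 was 12.0-fold lower, the Fc receptor gene Fcgr3 18.8-fold and the integrin gene Itgam 16.7-fold. In the monocyte gate 3 of 9 were higher and none lower: Csf1r by 8.19-fold in A965 and 6.93-fold in A963, Irf8 by 2.16-fold and 2.73-fold, and the GM-CSF receptor gene Csf2ra by 1.96-fold in A965.

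In the list of the Gfi1 complex and its repressed targets, the paralog Gfi1b was 77.2-fold higher in the erythroid gate in A965 and 46.4-fold in A963. Gfi1b had 157 CPM in that gate, where Gfi1 was lowest, 51.4 CPM in the megakaryocyte gate and 0.492 CPM in the azurophil granule gate, where Gfi1 was highest. Id2, an inhibitor of helix-loop-helix factors and a target that Gfi1 represses, had 712 CPM in the conventional dendritic gate and 199.9 CPM in the late neutrophil granule gate. It had 87.8 CPM in the azurophil granule gate, where Gfi1 was highest. The gates lowest in Gfi1 held less Id2 than that: 59.8 CPM in the monocyte, 42.6 CPM in the plasmacytoid dendritic and 5.40 CPM in the erythroid gate. In the azurophil granule gate 2 of the 10 tested genes of this list were lower and none higher, beside 3.78% and 3.87% of all tested genes.

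The list of Myc growth targets holds genes for ribosome production, polyamine synthesis and other growth functions. It had 10 of 12 genes higher in the erythroid gate and none lower, with medians of 1.30 in A965 and 0.93 in A963 (log2). Of all tested genes, 18.9% were called higher in that gate. Odc1, which starts polyamine synthesis, was 7.77-fold higher there in A965, and the snoRNP genes Nop58 and Nop56 were 3.49-fold and 3.11-fold higher. In the late neutrophil granule gate 10 of 11 were lower and none higher, with medians of -2.54 and -2.52 against -0.54 and -0.51 over all genes tested. Of all tested genes, 40.4% were called lower in this gate. Srm was 44.8-fold lower there in A965, Fbl 13.5-fold and Npm1 11.2-fold. Myc itself was not called in the erythroid gate, at 57.3 CPM against 17.6 CPM in the other gates of A965 and 39.1 CPM against 27.3 CPM in A963. It was called after thinning (0.60 in A963, log2). With the other gates weighted equally Myc was not called there, at 1.99-fold in A965 and 1.003-fold in A963. S phase genes were higher in the erythroid gate for 9 of 10 members, beside the 18.9% of all tested genes.

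In the Myb list, genes moved both ways. In the stem gate 3 of 8 tested genes were higher and 2 lower, led by Cd34 (13.4-fold higher in A965), Kit (8.12-fold higher) and the granulocyte factor gene Cebpe (15.8-fold lower). Of all tested genes, 11.4% were called higher and 6.9% lower in that gate. Cebpe was 4.11-fold higher in the late neutrophil granule gate in A965 and 8.69-fold in A963, where Myb was lower. In the list of the CBF complex, none of 6 tested genes was called higher in the erythroid gate and 2 were lower, Cbfb and Runx2. Of all tested genes, 18.9% were called higher and 20.2% lower in that gate, so a list of this size is not set apart by these counts. Between A965 and A963 over all cells, 2 of the 73 tested genes of all lists (of 87) were called higher and 3 lower, beside the 1.93% and 2.54% of all tested genes. These were Csf2rb and Fcgr3, which were 1.95-fold and 1.79-fold higher in A965, and Gfi1b, Odc1 and Nop58, which were 4.46-fold, 2.29-fold and 1.59-fold lower. Within the erythroid gate, which held 2.86% of A965 cells and 13.1% of A963 cells, Gfi1b had 162 CPM in A965, against 155 CPM in A963, Odc1 had 294 against 320.0 CPM and Nop58 had 218 against 193 CPM, and none of these was called.

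Genes whose pattern was most like that of each regulator were ranked by Pearson's r of log2 levels over 16 points, the 8 gates in each of A965 and A963, among 4114 genes with at least 50 CPM in some point. The points share 1 library, and the values are a description. The ranking depends on the measure: with Spearman's rho, 0 of the 5 genes stayed among the first 5 for Spi1 and for Runx1, 1 for Gfi1 and for Myb, 2 for Myc and 3 for Runx3. Spi1 was most like Evi2 (r = 0.99), Sla (0.98) and 3 genes of the Arp2/3 actin complex, Arpc2, Arpc1b and Actr3 (0.97 each). Gfi1 was most like Mfsd13a (0.93), Tmx4 (0.90), Ankrd28 (0.88), Cd63 (0.86) and Serpinb1a (0.86). Runx1 was most like Fkbp1a (0.91), followed by Eml4, Cmtm7, Tgfb1 and Tbl1xr1. For Runx3 they included Riox2 (0.98), Nt5c3b, Tut4 and Ccdc107. For Myb they were Mtf2 (0.97), Cdk6, Hmgn5, D16Ertd472e and Srp68, and for Myc Wdr77 (0.93), Mybbp1a, Atad3a, Smyd2 and Wdr12. Among the regulators, r was 0.79 for Runx3 with Myb, 0.73 for Myb with Myc and -0.54 for Spi1 with Myc. Gfi1 had at most 0.38 with any of the others.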

How the data were processed

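The deposited table holds whole-number counts per gene and cell of 1 library, and the hashtag is part of each cell's name, per the file headers. Per the labels' protocols, cells were captured with BD Rhapsody and amplified by TAS-Seq; 15000 cells were loaded for A965 and for A963 and 100 for each other tag. Among the tools and builds in the submitters' processing notes are Seurat 4.2.0, R 4.2.1 and GRCm38, with no step named for them. The aligner, the annotation, and whether counts are molecules or reads are not given in the sources used here.

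Of 10731 cells, 190 named doublets and 6 without a tag were not used, and a filter at 500 genes and 20% mitochondrial counts removed 7. Summed counts were 175876760 for A965 and 118142775 for A963, and 1965440 to 3100547 for the others. Scrublet (scanpy 1.11.5) called 223 cells; they stayed in. A cell took the gate with the highest mean z-score, if at least 0.5 and 0.25 above the next. Counts were summed and scaled to CPM. Ratios use 10 CPM added for calls and none for printed folds, among genes with at least 10 CPM on 1 side. Intervals are exact (Poisson, conditional binomial, Clopper-Pearson; scipy 1.17.1), and a count of 0 allows 3 counts. Ratio steps were tested on simulated data. The members, gates and lists were chosen with earlier results of these data known. Of the lists, the up to 3 genes with the largest ratio past 1.5-fold in a comparison were named, and for each regulator the 5 genes of most similar pattern, of which 1 is not reported here. Genes named outside this rule, chosen after their values were seen, are Runx2, Cbfb, Gfi1b, Irf8, Csf1r, Elane, Mycn, Mycl, Mxd1, Cebpe and Id2 by gate, the pairing of Gfi1 with Irf8 in cells, and the spacing of the Runx pair. Mxi1, Mxd3, Mxd4, Mnt and Mga by gate were chosen in the same way.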

Additional observations from a re-analysis of the deposited data

How the results depend on the processing

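Of 1770 values recomputed under alternatives for 198 ratios, 1644 kept their side of the threshold, 75 came to pass it and 48 no longer did. A further 3 that had passed it reversed. Changes of sign under the threshold are counted among the 1644. Gfi1 in the late neutrophil granule gate of A965 is 1 of these, at 0.24 with median-of-ratios scaling against -0.27 (log2). The reversed values were Spi1 in the later erythroid cells of A965 without Scrublet calls (-0.12) and, with the other gates weighted equally, Gfi1 in the stem gate of A965 (0.028) and Myc in the azurophil granule gate of A965 (-0.041). The 2 calls between A965 and A963 within gates became 4 with a gate score minimum of 1, 4 with odd-numbered and 4 with even-numbered markers, 7 with 1 CPM added, 1 without Scrublet calls, 1 after thinning to 8800 counts, and 0 with no gate margin or with median-of-ratios scaling; over all cells that scaling made 1 call in place of 0. The 30 genes of most similar pattern shared 7 with Spearman's rho, 10 with A963 points alone and 18 with A965 points alone. The causes of these moves were not tested. No paired analysis was possible because there was 1 library and no tag had a replicate.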
